A study of Mus musculus with 12 samples.

Results

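The genes described here are 10 secreted or membrane-anchored proteins that recruit or sustain monocytes and macrophages: the CC chemokines Ccl2, Ccl5, Ccl7 and Ccl20, the transmembrane chemokines Cx3cl1 and Cxcl16, the growth factors Csf1 and Il34, the adhesion protein osteopontin (Spp1) and the cytokine Mif. They were taken by gene symbol from a table of 22298 genes, and all 10 passed the filter on low counts. RNA was sequenced from 4T1 cells, a mammary carcinoma line of BALB/c mice that the study treats as triple-negative breast cancer. Cells carried 1 of 2 guides against Cop1 (sgRNA1 or sgRNA2) or a guide against Rosa26, a locus often cut as a neutral control. These 3 populations were kept in vehicle or exposed for 24 h to 20 ng/ml of IFNγ (interferon gamma), and each of the 6 groups held 2 libraries, 12 in all. The design asks how Cop1-intact and Cop1-loss cells respond to IFNγ. The labels do not say how Cas9 was delivered, whether a population was a pool or a clone, or whether replicates were separate cultures. The p-values therefore measure only the spread between these libraries, which may be technical.

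Chemokines are small proteins that guide leukocytes along a gradient through G-protein-coupled receptors. CCL2 and CCL7 draw monocytes through CCR2, CCL5 draws monocytes and T cells, and CCL20 acts through CCR6 on lymphocytes and dendritic cells. CX3CL1 and CXCL16 are made as membrane-anchored chemokines that hold CX3CR1- or CXCR6-bearing cells at the surface and become soluble attractants when ADAM10 or ADAM17 cuts them off. CSF1 and IL-34 both bind CSF1R, the receptor on which most macrophages depend, while osteopontin binds integrins and CD44, and MIF binds CD74. Tumour cells are one source of these factors in mammary carcinoma. COP1 is a ubiquitin ligase whose known substrates include transcription factors of the Jun, C/EBP and ETS families.

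Promoter sequence is shown for Ccl20, Csf1 and Spp1, because Cop1-loss cells held less of all 3 transcripts while IFNγ raised Ccl20 and Csf1 and lowered Spp1 in Rosa26 cells. Each run holds the 250 bases before a RefSeq transcript start (GRCm38.p6), read 5′ to 3′ on the gene's strand. Capitals mark letters that match a searched motif.
Ccl20, chr1:83116516-83116765, plus strand: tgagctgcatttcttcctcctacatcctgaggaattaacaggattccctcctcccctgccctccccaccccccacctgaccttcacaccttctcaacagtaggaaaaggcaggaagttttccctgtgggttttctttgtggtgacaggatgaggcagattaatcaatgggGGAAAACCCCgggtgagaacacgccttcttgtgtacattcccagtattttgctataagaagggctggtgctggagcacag
Csf1, chr3:107760470-107760719, minus strand: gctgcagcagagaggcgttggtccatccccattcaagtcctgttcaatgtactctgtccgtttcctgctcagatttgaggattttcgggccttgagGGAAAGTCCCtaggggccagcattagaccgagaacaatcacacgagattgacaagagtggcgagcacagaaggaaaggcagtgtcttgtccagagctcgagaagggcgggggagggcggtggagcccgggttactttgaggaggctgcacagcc
Spp1, chr5:104434861-104435110, plus strand: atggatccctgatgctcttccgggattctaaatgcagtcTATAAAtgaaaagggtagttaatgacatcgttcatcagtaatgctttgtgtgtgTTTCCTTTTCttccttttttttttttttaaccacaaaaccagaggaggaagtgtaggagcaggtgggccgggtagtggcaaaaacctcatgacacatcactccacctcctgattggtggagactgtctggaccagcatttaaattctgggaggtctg
The capitals in the Ccl20 window, at positions -80 to -71 from the start, match the NF-kB motif on the opposite strand. So do those in the Csf1 window, at -154 to -145. In the Spp1 window the capitals at -157 to -148 match the interferon-stimulated response element (ISRE, a pair of GAAA runs with 2 free bases between them, here on the opposite strand) and those at -211 to -206 match TATAAA. The search covered both strands and 6 motifs, which also included AP-1 (TGANTCA), C/EBP (TTGCNNAA) and GAS (TTCNNNGAA), and no printed match overlapped another. Among 32851 RefSeq windows of the same length, 7.25% held the NF-kB motif, 2.98% ISRE, 12.4% TATAAA, 6.75% AP-1, 9.56% C/EBP and 7.02% GAS. Windows were given for 5 of the 10 genes. Of the other windows, that of Cx3cl1 held TATAAA at -6 to -1 from a RefSeq start that lies inside the GENCODE gene, so that these letters do too. A second Spp1 window, which lies wholly inside the GENCODE Spp1 gene, held the C/EBP motif at -156 to -149, and that of Mif held none of the motifs. A match describes the letters and was not tested as a binding site.

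Library totals ran from 19378070 to 32609717 gene counts, the highest being sgRNA1 vehicle replicate 1. Levels are CPM, counts per 1000000 library counts after scaling by the trimmed mean of M values (TMM), and changes are log2 values ± standard error (SE). A change was called at an adjusted p under 0.05 over all 11904 genes tested. The targeted gene checks the labels. Cop1 (chr1:159232320-159347640, GRCm38) stood at 89.7 and 98.2 CPM in Rosa26 vehicle libraries, 59.1 and 63.1 in sgRNA1 and 34.5 and 34.7 in sgRNA2. With IFNγ it stood at 80.4 and 83.3, 60.7 and 60.2, and 32.3 and 33.6 CPM in the same order. Both guides thus lowered the transcript without removing it, to 65.0% and 36.8% of Rosa26 in vehicle, and these libraries do not measure the protein.

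The cells were also checked for markers. All 8 epithelial carcinoma markers were expressed, with a summed level of 3550 to 4500 CPM over the 12 libraries. Of 14 macrophage and monocyte markers, 4 passed the filter. Adgre1 and Ccr2 had no count in any library, Ptprc had 0 to 6 counts and Lyz2 0 to 7, while Cd68 (130 to 279 counts) and Cd14 (250 to 536 counts), which other cells also express, held most of the sum. That sum differed between groups, at 30.7 to 31.6 CPM in Rosa26 vehicle, 22.9 to 27.2 in Cop1-loss vehicle, 35.9 to 37.2 in Rosa26 with IFNγ and 22.4 to 26.8 in Cop1-loss with IFNγ. Of the 4 tested, Cd68 and Cd14 were lower with Cop1 loss in both treatments and the other 2 were not called. Across all genes 19.2% were lower in vehicle and 20.7% with IFNγ. Cd68 changed by -0.40 ± 0.12 in vehicle (adjusted p = 0.00942) and -0.60 ± 0.12 with IFNγ (adjusted p = 8.32e-05). Cd14 changed by -0.25 ± 0.09 (adjusted p = 0.0238) and -0.60 ± 0.09 (adjusted p = 2.86e-07). Summed fibroblast markers also differed, at 27.7 to 29.3 CPM in Rosa26 vehicle, 19.5 to 23.9 in Cop1-loss vehicle, 18.3 to 18.6 in Rosa26 with IFNγ and 16.5 to 18.6 in Cop1-loss with IFNγ. Of the 8 fibroblast markers 3 were tested, and all 3 were lower with Cop1 loss in vehicle, beside 19.2% of all genes. The changes were -1.80 ± 0.58 for Col1a1 (adjusted p = 0.0123), -1.49 ± 0.24 for Postn (adjusted p = 3.99e-06) and -0.26 ± 0.08 for Pdgfra (adjusted p = 0.0114). Col1a1 rests on only 3 to 17 counts per library. With IFNγ none of the 3 was called between Cop1-loss and Rosa26 cells. Other leukocyte markers summed to 1.36 to 2.04 CPM in vehicle and 3.03 to 7.38 with IFNγ, with 4 of the 8 at 0 in every library. S100a8, the 1 marker of these that was tested, held most of that sum, at a mean of 1.575 CPM in Rosa26 vehicle and 6.89 in Rosa26 with IFNγ. Cd79a, S100a9 and Ly6g had at most 4 counts in a library. Endothelial markers summed to 0.288 to 0.987 CPM. The part of these markers in the results on the 10 genes was not tested.

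In vehicle, Cop1-loss cells (the mean of the guides on the log2 scale) held less Cxcl16, Spp1, Csf1, Ccl20, Ccl7 and Ccl5 than Rosa26 cells, and more Cx3cl1, Il34 and Mif. Ccl2 was not called. Across all genes tested 35.8% were called, 16.6% higher and 19.2% lower, and 9 of the 10 attractant genes were called. With IFNγ, 7 were lower and 2 higher, Il34 being the one without a call, beside a background of 40.6%, of which 19.8% were higher and 20.7% lower. The median log2 change of the 10 genes was -0.37 in vehicle, where the median of all genes was -0.0081, and -0.55 with IFNγ, where it was -0.0045. All 4 Cop1-loss libraries lay on 1 side of both Rosa26 libraries for 9 of the 10 genes in vehicle, beside 46.1% of all genes tested, and for 9 with IFNγ, beside 48.6%. The exceptions were Ccl5 in vehicle and Il34 with IFNγ.

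**Figure D1:**
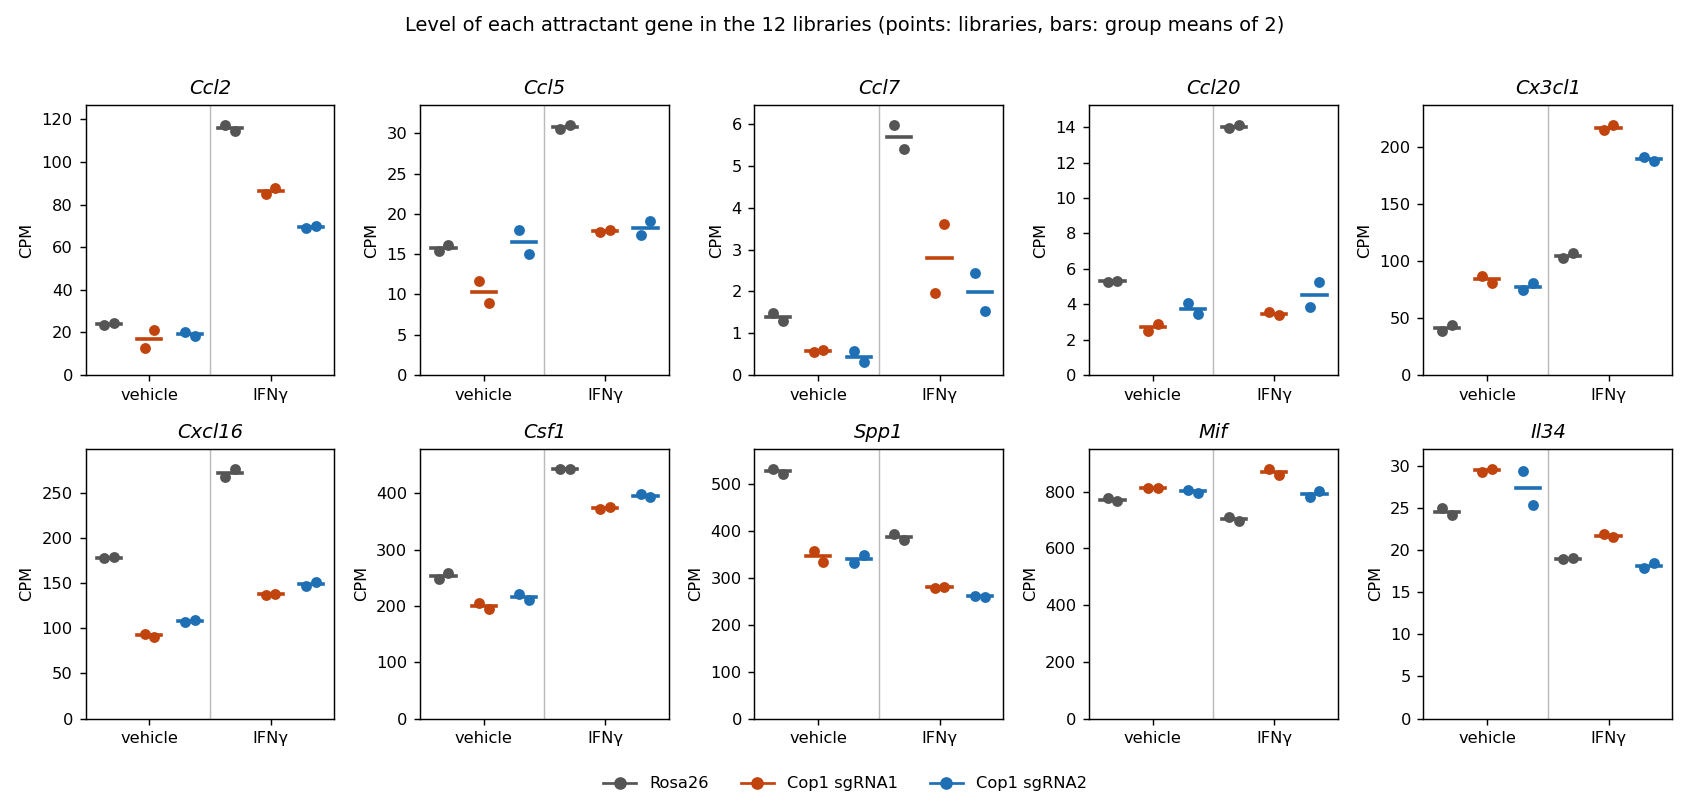
Level of each of the 10 attractant genes in CPM (vertical axis, linear from 0) in the 12 libraries, with vehicle on the left and IFNγ on the right of each panel. Points are libraries and bars group means of 2. Cx3cl1 lies above Rosa26 in both guides and Cxcl16 and Spp1 lie below it, while Ccl20 reaches 14.0 and 14.1 CPM only in the IFNγ-treated Rosa26 libraries.

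The CC chemokine Ccl2 (chr11:82035571-82037453) is the classical monocyte attractant. It stood at 23.6 and 24.6 CPM in Rosa26 vehicle libraries, 12.6 and 21.0 in sgRNA1 and 20.2 and 18.2 in sgRNA2. With IFNγ it reached 117 and 115 CPM in Rosa26, 85.0 and 87.7 in sgRNA1 and 69.0 and 70.1 in sgRNA2. All 4 Cop1-loss libraries lay below both Rosa26 libraries in each treatment, and the sgRNA1 vehicle pair was the widest apart. The vehicle difference was -0.45 ± 0.17 and was not called (adjusted p = 0.0857). Leaving out 1 sgRNA1 vehicle library gave -0.26 ± 0.07 without replicate 1 and -0.63 ± 0.07 without replicate 2. Both fits drop the spread within that pair, so their smaller SE does not settle the call. With all libraries the difference was called with no low-count filter (adjusted p = 0.0211) and without the robust estimate of spread (adjusted p = 0.000508). With IFNγ the difference of -0.58 ± 0.12 was called (adjusted p = 0.00709), but not without Rosa26 IFNγ replicate 1 (adjusted p = 0.0545). In the annotation Ccl2 lies wholly inside the span of the antisense gene Gm17268. Whether their exons overlap was not looked up, and the sources used here do not give the strand setting of the counting. It is therefore not known whether reads of the pair were kept apart.

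Ccl7 (chr11:82045712-82047525), the neighbour of Ccl2 and a further CCR2 ligand, rests on raw counts of 7 to 140 per library. It stood at 1.497 and 1.29 CPM in Rosa26 vehicle, 0.552 and 0.611 in sgRNA1 and 0.577 and 0.304 in sgRNA2. With IFNγ the values were 5.97 and 5.41 CPM in Rosa26, 1.98 and 3.61 in sgRNA1 and 2.44 and 1.52 in sgRNA2. Rosa26 libraries were above every Cop1-loss library of the same treatment. Ccl7 was lower by a log2 change of -1.47 ± 0.36 in vehicle (adjusted p = 0.0012) and -1.27 ± 0.23 with IFNγ (adjusted p = 2.01e-05), and both guides were called on their own in each treatment.

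Ccl5 (chr11:83525778-83530518), which attracts monocytes and T cells, depended on the guide in vehicle. It stood at 15.3 and 16.1 CPM in Rosa26, 11.7 and 8.97 in sgRNA1 and 18.0 and 14.97 in sgRNA2, so the Cop1-loss libraries overlapped with Rosa26. With IFNγ the groups separated, at 30.5 and 31.0 CPM in Rosa26, 17.8 and 18.1 in sgRNA1 and 17.3 and 19.1 in sgRNA2. The mean of the guides was lower in vehicle by a log2 change of -0.26 ± 0.10 (adjusted p = 0.0348), made of -0.58 ± 0.11 for sgRNA1 (adjusted p = 8.66e-05) and 0.066 ± 0.11 for sgRNA2 (adjusted p = 0.706). This vehicle call was lost without either Rosa26 vehicle library (adjusted p = 0.0876 and 0.214), without sgRNA1 replicate 2 (adjusted p = 0.165) or sgRNA2 replicate 2 (adjusted p = 0.146), with only the groups compared in the fit (adjusted p = 0.0612) and with DESeq2 (adjusted p = 0.0738). With IFNγ the change was -0.77 ± 0.09 (adjusted p = 9.22e-10), at -0.78 ± 0.10 for sgRNA1 and -0.76 ± 0.10 for sgRNA2.

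Ccl20 (chr1:83116766-83119167), the only ligand of CCR6 among chemokines, showed the largest Cop1-loss difference of the 10 with IFNγ. In vehicle it stood at 5.24 and 5.34 CPM in Rosa26, 2.51 and 2.87 in sgRNA1 and 4.08 and 3.43 in sgRNA2. Under IFNγ its level was 14.0 and 14.1 CPM in Rosa26, 3.56 and 3.39 in sgRNA1 and 3.84 and 5.25 in sgRNA2. Of the 4 IFNγ-treated Cop1-loss libraries, 3 lay below both untreated Rosa26 libraries and the highest lay between them. The log2 change with Cop1 loss was -0.74 ± 0.17 in vehicle (adjusted p = 0.00041) and -1.82 ± 0.14 with IFNγ (adjusted p = 3.97e-14). With IFNγ sgRNA1 cells held 24.8% and sgRNA2 cells 32.4% of the Rosa26 level.

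The transmembrane chemokines moved in opposite directions. Cx3cl1, or fractalkine (chr8:94772009-94782427), stood at 38.3 and 43.8 CPM in Rosa26 vehicle, 86.8 and 80.8 in sgRNA1 and 74.3 and 80.7 in sgRNA2. With IFNγ the values were 102 and 107 CPM in Rosa26, 215 and 219 in sgRNA1 and 191 and 188 in sgRNA2. Cop1-loss cells held close to double the Rosa26 level in both treatments, with log2 changes of 0.98 ± 0.05 (adjusted p = 1.24e-19) and 0.95 ± 0.04 (adjusted p = 6.36e-22). Cxcl16 (chr11:70453983-70459984) stood at 178 and 179 CPM in Rosa26 vehicle, 93.9 and 90.8 in sgRNA1 and 107 and 109 in sgRNA2. Under IFNγ the levels were 267 and 276, 137 and 138, and 147 and 151 CPM in the same order. No library overlapped between Cop1 loss and Rosa26 for either gene. The log2 change of Cxcl16 was -0.83 ± 0.03 in vehicle (adjusted p = 1.13e-23) and -0.93 ± 0.03 with IFNγ (adjusted p = 3.21e-26). The span of Cxcl16 overlaps that of the antisense gene Zmynd15 over the 552 bases of its 5′ end. Whether their exons overlap was not looked up, and without a stated strand setting it is not known how reads there were assigned.

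Of the ligands of CSF1R, Csf1 was lower with Cop1 loss in both treatments and Il34 was slightly higher in vehicle. Csf1 (chr3:107741048-107760469), the main survival factor of macrophages, stood at 248 and 259 CPM in Rosa26 vehicle, 206 and 195 in sgRNA1 and 222 and 210 in sgRNA2. With IFNγ it stood at 444 and 442 CPM in Rosa26, 373 and 376 in sgRNA1 and 399 and 393 in sgRNA2. The groups did not overlap, although the difference was small: -0.28 ± 0.03 in vehicle (adjusted p = 1.06e-10) and -0.20 ± 0.03 with IFNγ (adjusted p = 8.25e-08). Il34 (chr8:110741829-110805924), the alternative ligand of that receptor, stood at 24.9 and 24.1 CPM in Rosa26 vehicle, 29.2 and 29.6 in sgRNA1 and 29.4 and 25.3 in sgRNA2. IFNγ-treated libraries held 18.9 and 19.03, 21.9 and 21.5, and 17.8 and 18.5 CPM, and the Cop1-loss libraries lay on both sides of Rosa26. The vehicle call of 0.21 ± 0.07 (adjusted p = 0.0235) was lost without either Rosa26 vehicle library (adjusted p = 0.0726 and 0.167), without sgRNA2 vehicle replicate 1 (adjusted p = 0.124) and with DESeq2 (adjusted p = 0.0537). It was called for sgRNA1 on its own (0.26 ± 0.08, adjusted p = 0.0126) and not for sgRNA2 (0.16 ± 0.09, adjusted p = 0.181). With IFNγ the value was 0.065 ± 0.080 (adjusted p = 0.547). The antisense genes Gm15894 and Gm15895 overlap Il34.

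Spp1 and Mif had the highest levels per length of the 10. Spp1 (chr5:104435118-104441050) encodes osteopontin, a matrix and cytokine-like protein that binds integrins and CD44. It stood at 533 and 522 CPM in Rosa26 vehicle, 357 and 335 in sgRNA1 and 333 and 348 in sgRNA2. Under IFNγ its level was 394 and 381, 279 and 281, and 261 and 260 CPM in the same order. Cop1-loss libraries lay below Rosa26 throughout, by -0.62 ± 0.03 in vehicle (adjusted p = 7.18e-22) and -0.52 ± 0.03 with IFNγ (adjusted p = 3.47e-19). Mif (chr10:75859353-75860240), a cytokine that acts on macrophages, stood at 777 and 767 CPM in Rosa26 vehicle, 813 and 813 in sgRNA1 and 806 and 795 in sgRNA2. With IFNγ it stood at 709 and 695, 881 and 859, and 782 and 803 CPM. The vehicle difference was only 0.064 ± 0.023 (adjusted p = 0.0238) and was lost without either Rosa26 vehicle library (adjusted p = 0.0637 and 0.196) and without sgRNA1 replicate 1 (adjusted p = 0.0502). On its own sgRNA1 gave a call (0.075 ± 0.026, adjusted p = 0.0224) and sgRNA2 did not (0.053 ± 0.026, adjusted p = 0.129). With IFNγ it was 0.24 ± 0.02 (adjusted p = 1.01e-11). Mif has many near-identical copies in the genome, so its counts are uncertain where reads could align to more than 1 place. The unclassified gene Gm42793 overlaps Spp1 on its own strand.

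**Figure D2:**
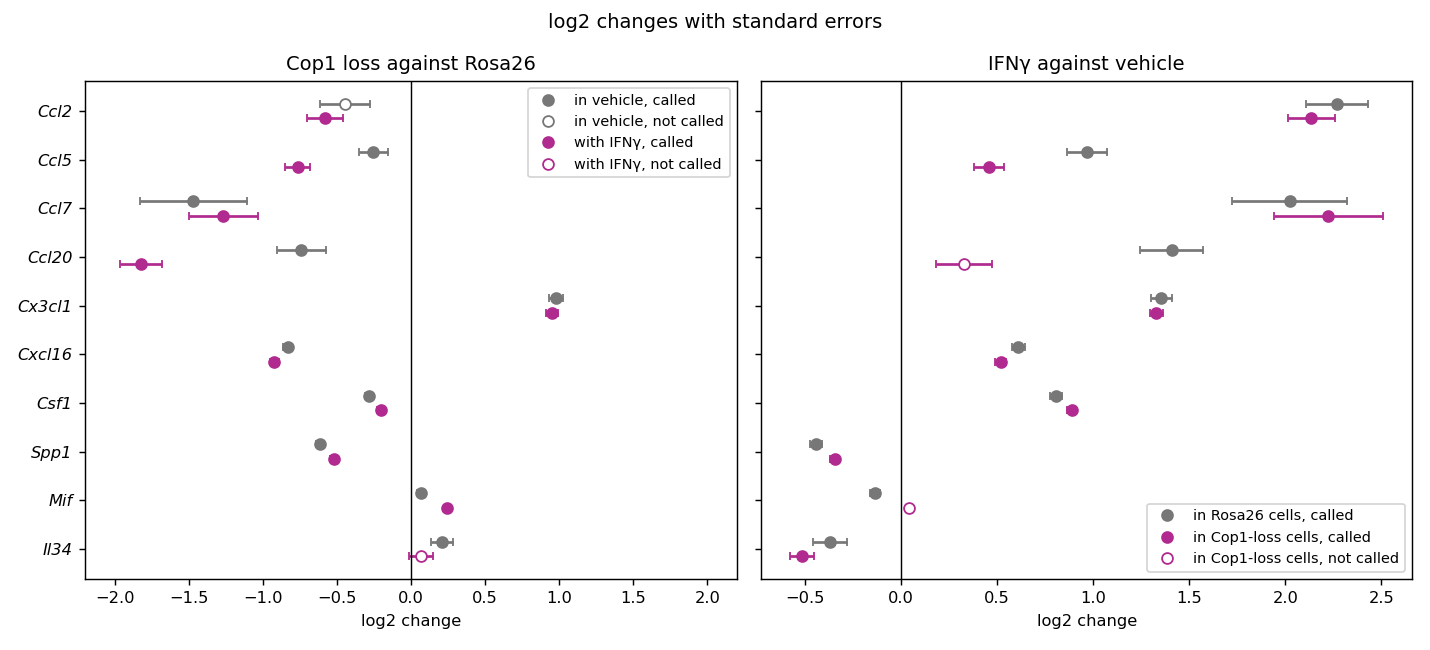
log2 changes (horizontal axes) of the 10 attractant genes with bars of 1 standard error, for Cop1 loss against Rosa26 on the left and IFNγ against vehicle on the right. Filled points were called and open points were not. On the left Cx3cl1 lies at 0.98 and 0.95 and Ccl20 at -0.74 and -1.82, and on the right Ccl20 lies at 1.41 in Rosa26 cells and 0.33 in Cop1-loss cells.

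Each guide stands for a single population of cells. Both guides are compared with the same Rosa26 libraries, so their changes against Rosa26 are not independent. When the libraries of each population and treatment were summed, so that the spread came from the guides alone, Ccl7, Cx3cl1, Cxcl16, Csf1 and Spp1 were called in vehicle and Ccl5, Ccl20, Mif and Il34 were not. In the same fit the IFNγ calls of Ccl5 (-0.77) and Csf1 (-0.20) were lost, and those of the other genes called with IFNγ held. Calls over all genes in this fit are given below, with the other alternatives. Cop1 was not called in that fit in either treatment (adjusted p = 0.413 and 0.466).

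IFNγ raised 7 of the 10 genes in Rosa26 cells and lowered 3, beside 32.8% of all genes called (16.6% higher, 16.2% lower). The largest increases were those of the CCR2 ligands: Ccl2 by 2.27 ± 0.16 (adjusted p = 2.66e-05) and Ccl7 by 2.02 ± 0.30 (adjusted p = 5.13e-07). Ccl20 increased by 1.41 ± 0.16, Cx3cl1 by 1.35 ± 0.05, Ccl5 by 0.97 ± 0.10, Csf1 by 0.81 ± 0.03 and Cxcl16 by 0.61 ± 0.04 on the log2 scale. Spp1 fell by 0.44 ± 0.03 (adjusted p = 2.13e-15), Il34 by 0.37 ± 0.09 (adjusted p = 0.000935) and Mif by 0.14 ± 0.03 (adjusted p = 4.64e-05). The libraries of the treatments did not overlap for any of the 10, but with 2 against 2 libraries that held for 65.3% of all genes tested. Under upper-quartile scaling the split of all calls moved from 1972 higher and 1928 lower to 1605 higher and 2537 lower, while the direction and call of the 10 genes held.

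In Cop1-loss cells IFNγ raised 6 of the 10 and lowered Spp1 and Il34, beside a background of 34.2% (18.1% higher, 16.1% lower). Under upper-quartile scaling that split moved from 2152 higher and 1921 lower to 1502 higher and 3038 lower. Ccl2 increased by 2.14 ± 0.12, Ccl7 by 2.22 ± 0.28, Cx3cl1 by 1.33 ± 0.03, Csf1 by 0.89 ± 0.02, Cxcl16 by 0.52 ± 0.03 and Ccl5 by 0.46 ± 0.08. Spp1 fell by 0.35 ± 0.02 and Il34 by 0.51 ± 0.06. Ccl20, at 0.33 ± 0.15 (adjusted p = 0.0793), and Mif, at 0.041 ± 0.018 (adjusted p = 0.0786), were not called. Treated and untreated libraries overlapped for Ccl20, Mif and Ccl5 and not for the other 7, beside 25.4% of all genes without overlap. Without sgRNA2 IFNγ replicate 1 the Ccl20 response was called at 0.43 ± 0.16 (adjusted p = 0.0319), and under upper-quartile scaling the Mif value turned to -0.0074 (adjusted p = 0.788). For Mif the response was called in sgRNA1 alone (0.098 ± 0.026, adjusted p = 0.00381). The Ccl5 increase was 0.77 ± 0.11 in sgRNA1 (adjusted p = 5.09e-07) and 0.14 ± 0.11 in sgRNA2 (adjusted p = 0.388), and it was not called with the libraries summed (adjusted p = 0.233).

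The interaction compares these responses directly, as the IFNγ response in Cop1-loss cells minus that in Rosa26 cells. Of the 10 genes, the difference was called as negative for Ccl20 and Ccl5 and as positive for Mif, where 5.74% of all genes were called (3.38% higher, 2.36% lower). For Ccl20 the difference in response was -1.08 ± 0.22 (adjusted p = 0.00104). It was -1.02 ± 0.27 for sgRNA1 (adjusted p = 0.0197) and -1.14 ± 0.26 for sgRNA2 (adjusted p = 0.00514), values that share the Rosa26 libraries and are not independent. The ratio of IFNγ to vehicle was 2.65 in Rosa26, 1.29 in sgRNA1 and 1.21 in sgRNA2. For Ccl5 the difference of -0.51 ± 0.13 (adjusted p = 0.0112) came to -0.20 ± 0.15 in sgRNA1 (adjusted p = 0.605) and -0.82 ± 0.15 in sgRNA2 (adjusted p = 0.000386), and it was lost without Rosa26 vehicle replicate 1 (adjusted p = 0.0728) or sgRNA1 vehicle replicate 1 (adjusted p = 0.0766). For Mif the difference was 0.18 ± 0.03 (adjusted p = 0.000192), with a ratio of IFNγ to vehicle of 0.909 in Rosa26, 1.07 in sgRNA1 and 0.99 in sgRNA2. IFNγ lowered Mif in Rosa26 cells (-0.14 ± 0.03), and its change in Cop1-loss cells was not called (0.041 ± 0.018).

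The other 7 genes were not called for the interaction. Among these Cx3cl1 had a difference of -0.026 ± 0.065 (adjusted p = 0.884), Cxcl16 of -0.092 ± 0.045 (adjusted p = 0.27), Csf1 of 0.082 ± 0.040 (adjusted p = 0.265) and Spp1 of 0.097 ± 0.039 (adjusted p = 0.154). Ccl7 had 0.20 ± 0.42 (adjusted p = 0.866) and Il34 -0.14 ± 0.11 (adjusted p = 0.537). Ccl2 had -0.13 ± 0.21 (adjusted p = 0.816). Without sgRNA1 vehicle replicate 1 its value was -0.32 ± 0.08, in a fit that drops the spread within that pair. With libraries summed, 0 of the 12595 genes tested in that fit were called by edgeR for the interaction. An unadjusted p under 0.05 was found for 563 genes, 1 of them an attractant gene. That is no more than this threshold would pass among so many genes without any true difference. DESeq2, run on the separate libraries, called 489 genes, with Ccl5 and Mif among them and no adjusted p for Ccl20.

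**Figure D3:**
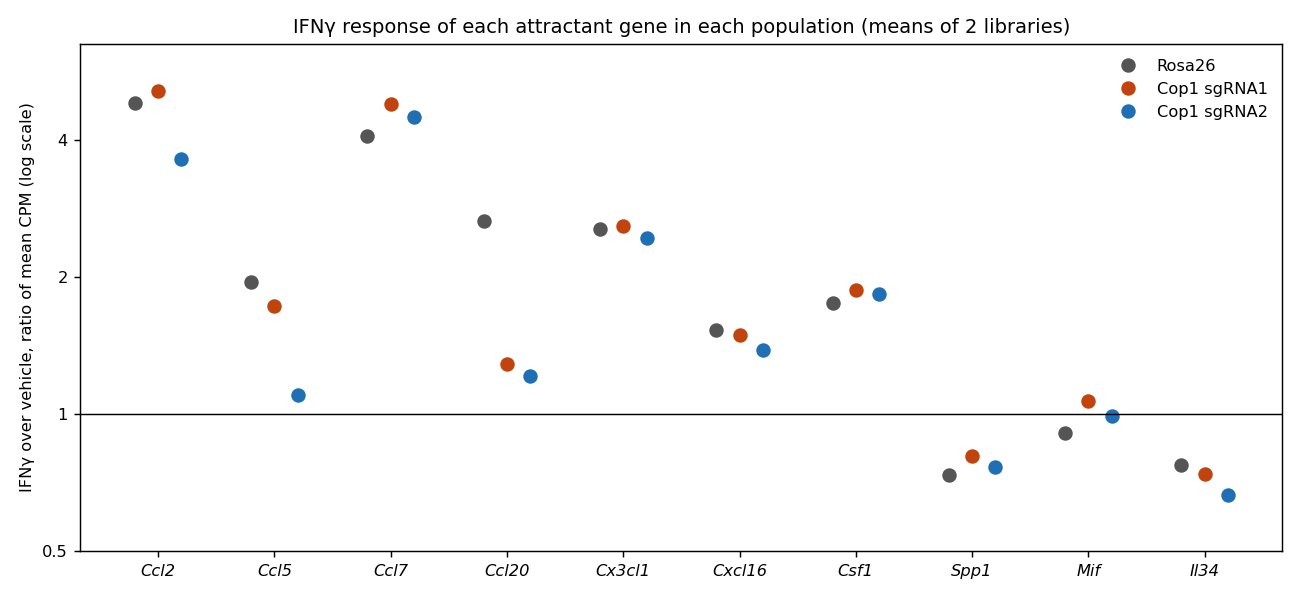
Ratio of mean CPM with IFNγ to mean CPM in vehicle (vertical axis, log scale) for the 10 attractant genes in Rosa26, sgRNA1 and sgRNA2 cells, each point a ratio of means of 2 libraries. Ccl20 lies at 2.65 in Rosa26 against 1.29 and 1.21 with the guides, whereas Cx3cl1 lies at 2.55, 2.59 and 2.44.

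The guides were compared with each other without the Rosa26 libraries. In vehicle sgRNA2 cells held more Ccl5 (0.65 ± 0.11, adjusted p = 0.000151), Cxcl16 (0.22 ± 0.04, adjusted p = 0.00019) and Csf1 (0.11 ± 0.03, adjusted p = 0.0488) than sgRNA1 cells, beside a background of 5.99% (2.58% higher, 3.41% lower). The Csf1 call was lost in 15 of 20 alternatives, with adjusted p up to 0.429. With IFNγ sgRNA2 cells held less Cx3cl1 (-0.20 ± 0.04, adjusted p = 0.00288), Mif (-0.13 ± 0.03, adjusted p = 0.000398) and Spp1 (-0.11 ± 0.03, adjusted p = 0.0376), beside 9.41% (5.07% higher, 4.33% lower), and this split moved from 604 higher and 516 lower to 448 higher and 677 lower under upper-quartile scaling. The Spp1 call was lost in 6 of 20 alternatives, among them each that left out 1 of the 4 libraries compared (adjusted p 0.142 to 0.171). Ccl2 with IFNγ was not called (-0.31 ± 0.15, adjusted p = 0.275). It was called with only the groups compared in the fit (-0.31 ± 0.05, adjusted p = 9.83e-05) and without the robust estimate of spread (adjusted p = 0.016). Leaving out either sgRNA1 vehicle library gave -0.312 each time, in fits that drop the spread within that pair. The Ccl20 difference was 0.49 ± 0.21 in vehicle (adjusted p = 0.191) and 0.38 ± 0.20 with IFNγ (adjusted p = 0.267), and neither was called. The other values without a call in vehicle were 0.24 ± 0.21 for Ccl2, -0.40 ± 0.52 for Ccl7, -0.12 ± 0.05 for Cx3cl1, -0.024 ± 0.032 for Spp1, -0.022 ± 0.026 for Mif and -0.11 ± 0.08 for Il34 (adjusted p 0.214 to 0.761). Those with IFNγ were 0.018 ± 0.108 for Ccl5, -0.47 ± 0.31 for Ccl7, 0.11 ± 0.04 for Cxcl16, 0.080 ± 0.032 for Csf1 and -0.26 ± 0.09 for Il34 (adjusted p 0.0571 to 0.951). Cop1 itself was lower in sgRNA2 than in sgRNA1, by -0.82 ± 0.06 in vehicle (adjusted p = 7.51e-13) and -0.88 ± 0.06 with IFNγ (adjusted p = 1.28e-13). Of the 6 called differences between guides, 5 leave the larger departure from Rosa26 in sgRNA1 and that of Spp1 leaves it in sgRNA2. Values without a call went both ways. Ccl20 departed further in sgRNA1 in both treatments, while Ccl7 in both treatments and Ccl2 with IFNγ departed further in sgRNA2. Whether the departures go with the amount of Cop1 was not tested.

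**Figure D4:**
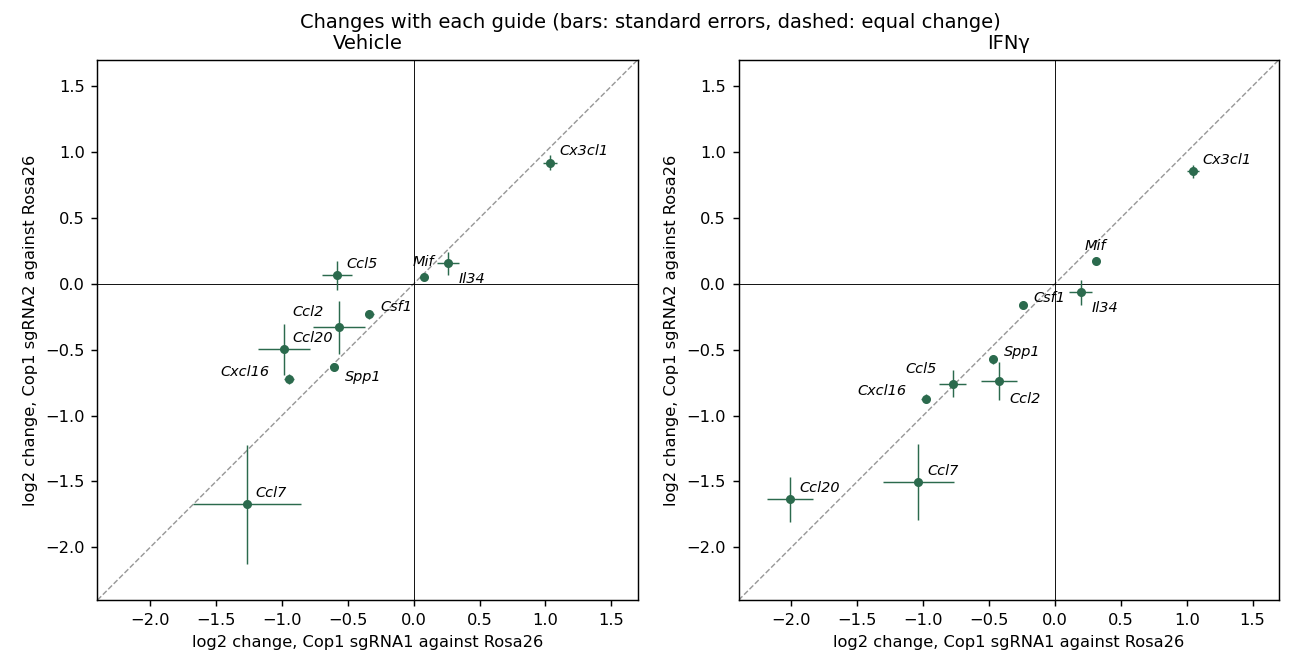
log2 change against Rosa26 for sgRNA1 (horizontal axis) and sgRNA2 (vertical axis), with bars of 1 standard error, in vehicle on the left and with IFNγ on the right. Both axes share the Rosa26 libraries, and the dashed line marks equal change. In vehicle Ccl5 stands off the line at -0.58 and 0.066, and with IFNγ Ccl20 lies at -2.01 and -1.63.

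Levels can be ordered between genes only per length, as CPM per kilobase of exon. In Rosa26 vehicle the order was Mif (1036), Spp1 (320.0), Cxcl16 (59.0), Csf1 (48.0), Ccl2 (21.1), Ccl5 (16.4), Il34 (12.5), Cx3cl1 (10.4), Ccl20 (3.72) and Ccl7 (1.74). Mif and Spp1 led in all 6 groups. With IFNγ Ccl2 took the third place in Rosa26 at 102 and in sgRNA1 at 75.9 CPM per kilobase, and in sgRNA2 it lay at 61.1 behind Csf1 at 75.0. Cx3cl1 stood below Csf1 and Cxcl16 in Rosa26 with IFNγ, at 26.7 against 83.9 and 90.0, but above Cxcl16 in sgRNA1, at 55.1 against 45.6. In sgRNA2 those chemokines lay at 48.1 for Cx3cl1 and 49.3 for Cxcl16. Neighbours whose libraries overlapped were Il34 with Ccl2 and Ccl2 with Ccl5 in sgRNA1 vehicle, Ccl5 with Ccl2 in sgRNA2 vehicle, and Ccl7 with Ccl20 in both Cop1-loss populations with IFNγ.

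Correlations of log2 CPM over the 12 libraries describe which patterns were alike, and since these points share 6 groups and their IFNγ and guide differences, no p is given. Among the 10 genes Ccl2 and Csf1 had a Pearson r of 0.974, Ccl20 and Cxcl16 of 0.936, Cx3cl1 and Spp1 of -0.913, and Csf1 and Il34 of -0.944. Among all tested genes whose mean log2 CPM reached 3, the closest to Ccl2 was Acod1 (r = 0.99), which makes itaconate. The closest to Csf1 was Cxcl10 (0.995), an interferon-induced chemokine, and to Cxcl16 it was Chac1 (0.994), a stress-induced enzyme that breaks down glutathione. Spp1 was closest to Nedd9 (0.993), Cx3cl1 to Uggt1 (0.986) and Il34 to Ubald2 (0.983). Ccl7 was closest to Dhrs7 (0.976), Ccl20 to Zfas1 (0.972), Ccl5 to Wdr59 (0.957) and Mif to St3gal3 (0.945).

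Receptors for these factors were looked up among 24 genes, of which 10 passed the filter. Several receptors of leukocytes were near 0 in these cells: Ccr2, Ccr3, Ccr6 and Itga4 had no count in any library, Cx3cr1 had at most 1 count in a library, Cxcr6 at most 4 and Csf1r 3 to 25. These were named after their counts were seen. In vehicle 5 of the 10 tested were higher with Cop1 loss and 3 lower, beside 16.6% and 19.2% of all genes, and with IFNγ 5 were higher and 2 lower, beside 19.8% and 20.7%. The medians were 0.18 and 0.16. Receptors of osteopontin moved both ways. Cd44 rose by 0.35 ± 0.02 in vehicle (adjusted p = 1.03e-15) and 0.29 ± 0.02 with IFNγ (adjusted p = 1.05e-13), from 605 and 624 CPM in Rosa26 vehicle to between 764 and 793 in the Cop1-loss libraries. Itgb3 rose by 1.38 ± 0.13 in vehicle (adjusted p = 9.48e-12), from 4.53 and 4.89 CPM to between 10.6 and 14.6, and Itgb5 fell by 0.65 ± 0.04 (adjusted p = 1.88e-17). Cd74, the MIF receptor and invariant chain of MHC class II, was raised by IFNγ from 3.95 and 5.12 CPM to 63.1 and 67.2 in Rosa26. In Cop1-loss cells it rose from between 5.685 and 5.815 CPM to between 100.2 and 130. With IFNγ it was higher with Cop1 loss by 0.81 ± 0.05 (adjusted p = 6.99e-17), a call that held in all 23 alternatives. Cd74 was the 1 receptor called for the interaction (0.45 ± 0.13, adjusted p = 0.0314), beside 5.74% of all genes. For sgRNA2 on its own the interaction was 0.29 ± 0.15 and was not called (adjusted p = 0.319). With libraries summed it was 0.46 ± 0.21 and was not called (adjusted p = 0.999). The call was also lost without Rosa26 vehicle replicate 2 (0.26 ± 0.17, adjusted p = 0.517), sgRNA1 vehicle replicate 1 (adjusted p = 0.0533), Rosa26 IFNγ replicate 1 (adjusted p = 0.11), sgRNA1 IFNγ replicate 2 (adjusted p = 0.0528) or sgRNA2 IFNγ replicate 2 (adjusted p = 0.0623). IFNγ raised 2 and lowered 6 of the 10 receptors in either kind of cell, where 16.6% and 16.2% of all genes were raised and lowered in Rosa26 and 18.1% and 16.1% in Cop1-loss cells. The heparan sulphate proteoglycan Sdc1 and the integrin subunit Itgb1 were among those lowered, and the Itgb1 call in Cop1-loss cells was lost with libraries summed (adjusted p = 0.0641).

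Proteins that shed or process the factors were looked up among 16 genes, 12 of which passed the filter. In vehicle 5 were higher and 2 lower with Cop1 loss, beside 16.6% and 19.2% of all genes, and with IFNγ 4 were higher and 1 lower, beside 19.8% and 20.7%. The medians were 0.027 and 0.032. The sheddases of Cx3cl1 and Cxcl16, which were named after their values were seen, differed little: Adam10 by 0.057 ± 0.032 (adjusted p = 0.169) and Adam17 by -0.087 ± 0.036 (adjusted p = 0.0536) in vehicle, and Adam10 by 0.059 ± 0.033 (adjusted p = 0.155) and Adam17 by -0.037 ± 0.036 (adjusted p = 0.438) with IFNγ. The matrix metalloproteinases Mmp3 and Mmp9 were higher in vehicle by 0.80 ± 0.03 (adjusted p = 9.18e-25) and 0.70 ± 0.06 (adjusted p = 1.86e-12), neither of which was called with libraries summed (adjusted p = 0.247 and 0.313). Mmp3 stood at 243 and 247 CPM in Rosa26 vehicle, 503 and 505 in sgRNA1 and 349 and 370 in sgRNA2. Thbs1, a matrix glycoprotein, was lower, at -0.81 ± 0.03 in vehicle (adjusted p = 7.74e-25) and -0.34 ± 0.03 under IFNγ (adjusted p = 2.68e-13), where the call was lost with libraries summed (adjusted p = 0.144). IFNγ raised Tgm2, the transglutaminase that crosslinks osteopontin, by 0.78 ± 0.10 in Rosa26 (adjusted p = 2.42e-08) and by 0.75 ± 0.07 in Cop1-loss cells (adjusted p = 6.6e-13). Mmp14, a membrane-bound metalloproteinase, fell by 0.27 ± 0.04 with IFNγ in Rosa26 cells (adjusted p = 1.53e-07), from 214 and 212 CPM to 180.5 and 172 CPM. For the interaction, beside 5.74% of all genes, 1 gene was higher, Thbs1 (0.46 ± 0.04, adjusted p = 5.99e-11), and 1 was lower, Mmp3 (-0.37 ± 0.04, adjusted p = 6.37e-09), and neither was called with libraries summed (adjusted p = 0.999 for both).

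Other attractants and growth factors of myeloid cells were looked up among 27 genes, of which 17 passed the filter. In vehicle 5 were higher and 6 lower with Cop1 loss (median -0.053), beside 16.6% and 19.2% of all genes. With IFNγ 3 were higher and 12 lower (median -0.65), beside 19.8% and 20.7%. Ptgs2, the inducible enzyme of prostaglandin synthesis, stood at 633 and 637 CPM in Rosa26 vehicle and between 434 and 461 in Cop1-loss vehicle. With IFNγ it reached 1072 and 1066 CPM in Rosa26 but 487 to 506 with Cop1 loss, a change of -1.11 ± 0.02 (adjusted p = 2.2e-34) after -0.51 ± 0.02 in vehicle (adjusted p = 1.54e-21). Vegfc, a lymphatic growth factor, fell by 1.44 ± 0.09 in vehicle (adjusted p = 1.85e-17) and 1.49 ± 0.08 with IFNγ (adjusted p = 2.67e-18). Complement C3, the source of the C3a fragment, fell by 0.98 ± 0.03 (adjusted p = 1.43e-26) and 0.68 ± 0.03 (adjusted p = 2.03e-22), and neither call held with libraries summed (adjusted p = 0.142 and 0.216). IFNγ raised 11 of the 17 and lowered 4 in Rosa26 cells, beside 16.6% and 16.2% of all genes, and raised 9 and lowered 3 in Cop1-loss cells, beside 18.1% and 16.1%. The increase of Csf3, the granulocyte growth factor, was 1.19 ± 0.03 in Rosa26 and 0.88 ± 0.02 with Cop1 loss, and that of Lif was 1.098 ± 0.03 and 0.87 ± 0.02. With libraries summed the Csf3 increase in Cop1-loss cells was 0.89 ± 0.24 and was not called (adjusted p = 0.129). For the interaction 2 were higher and 4 lower, beside 3.38% and 2.36% of all genes. Ptgs2 responded less in Cop1-loss cells (-0.60 ± 0.03, adjusted p = 1.61e-17), as did Csf3 (-0.30 ± 0.03, adjusted p = 1.47e-08), while C3 responded more (0.30 ± 0.04, adjusted p = 4.93e-06). None of these 3 was called for the interaction with libraries summed (adjusted p 0.0775 to 0.999).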

How the data were processed

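The authors' deposited table holds whole-number gene counts of 12 libraries, not normalized. An Illumina TruSeq kit was used on total RNA, per the labels' protocols. Per the submitters' processing notes, tools were STAR 2.4.0, HTSeq and DESeq2 1.10 with the build mm10. The sources used here give neither the annotation nor the strand setting. A row of totals was left out, which exceeded the gene counts in 1 library by 360 counts. Positions, overlaps of whole gene spans and exon lengths come from GENCODE vM21 (GRCm38), and promoters from RefSeq.

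edgeR 4.0.16 (R 4.3.3) was run with TMM scaling, filterByExpr (minimum count 10, total 15), 1 mean for each of 6 groups, robust quasi-likelihood F tests and Benjamini-Hochberg adjustment over 11904 genes. The residual degrees of freedom were 6 (median prior 34.5). The code was tested on simulated counts. Within each group the 2 libraries were further apart than counting noise (chi-square per degree of freedom 2.33 to 4.21). That excess cannot show whether they were separate cultures. The fit took each library as 1 replicate. The number and depth of the libraries limit precision, and Ccl7 rests on few counts.

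The 10 genes, the lists and the alternatives were chosen with earlier results of these data known. The rule for named genes took all 10 in each comparison, Cop1 and the 3 genes of each list with the smallest p among those called. It also took the 3 closest patterns of each of the 10, of which the closest is printed. Others are said to be named after their values were seen. Alternatives were other scalings, filters, estimates of spread, DESeq2 1.42.0, 1 guide at a time, summed libraries, a replicate block and leaving out each library.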

Additional observations from a re-analysis of the deposited data

Results flagged for a closer look

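For 3 of the 10 genes the IFNγ response differed between Cop1-loss and Rosa26 cells by the test of the interaction, on the log2 scale with edgeR. Across all genes tested 5.74% were called for it. The difference was -1.08 ± 0.22 for Ccl20 (adjusted p = 0.00104), -0.51 ± 0.13 for Ccl5 (-0.511, adjusted p = 0.0112) and 0.178 ± 0.032 for Mif (adjusted p = 0.000192). None of the 3 was called when the libraries of each population were summed.

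For 6 of the 10 genes the guides differed from each other, either in vehicle or with IFNγ. Across all genes tested 5.99% were called between guides in vehicle and 9.41% with IFNγ. In vehicle, sgRNA2 minus sgRNA1 was 0.645 ± 0.115 for Ccl5 (adjusted p = 0.000151), 0.222 ± 0.040 for Cxcl16 (adjusted p = 0.00019) and 0.108 ± 0.034 for Csf1 (adjusted p = 0.0488). With IFNγ it was -0.196 ± 0.045 for Cx3cl1 (adjusted p = 0.00288), -0.105 ± 0.033 for Spp1 (adjusted p = 0.0376) and -0.135 ± 0.026 for Mif (adjusted p = 0.000398). The Csf1 call was lost in 15 of 20 alternatives and the Spp1 call in 6 of 20. Whether these differences go with the amount of Cop1 transcript was not tested.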

How the results depend on the processing

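Over 1506 values of the 10 genes under the alternatives, 1420 kept direction and side of the threshold, 51 lost a call, 15 gained one and 20 changed sign. With libraries summed, 5 of the 10 were called in vehicle and 0 for the interaction, and calls over all genes came to 902 in vehicle, 1443 with IFNγ, 1399 for IFNγ in Cop1-loss cells and 0 for the interaction. The spread then rests on 2 guides and fewer samples. With sgRNA1 alone, 2674 genes responded to IFNγ and 416 were called for the interaction. With only the groups compared, 464 genes differed between guides in vehicle. Leaving out 1 library gave 348 to 733 interaction calls (348 without Rosa26 IFNγ replicate 1, 353 and 453 without Rosa26 vehicle replicates 2 and 1), 349 to 686 guide calls in vehicle (349 and 425 without sgRNA1 replicates 1 and 2, 408 without sgRNA2 replicate 1) and 422 to 1264 with IFNγ (422 and 732 without sgRNA1 replicates 1 and 2, 429 and 680 without sgRNA2 replicates 1 and 2). A lone library left in a group is assumed to vary like the others.

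Signs turned for values that were not called, apart from Ccl5 in vehicle. With sgRNA2 alone, Ccl5 in vehicle was 0.0658, Il34 with IFNγ -0.0643 and the Mif response -0.015, and under upper-quartile scaling that response was -0.00745. With sgRNA1 alone the interaction was 0.142 for Ccl2 and 0.0139 for Cx3cl1. Leaving out 1 library, the interaction ran from -0.321 to 0.0465 for Ccl2, -0.126 to 0.069 for Cx3cl1 and -0.0445 to 0.455 for Ccl7. The difference between guides in vehicle ran from -0.136 to 0.6 for Ccl2, -0.069 to 0.0256 for Spp1, -0.912 to 0.00147 for Ccl7 and -0.216 to 1.55e-05 for Il34, and with IFNγ from -0.862 to 0.0206 for Ccl7 and -0.0514 to 0.0884 for Ccl5. The cause was not tested.

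The replicate numbers do not pair the libraries: deviations of same-numbered libraries correlated between -0.0567 and 0.0748 over genes. With a replicate block, 4292 genes were called in vehicle, 4862 with IFNγ, 3926 and 4115 for the IFNγ responses, 693 for the interaction and 729 and 1162 between guides, and the number of the 10 genes called was the same in all 7 comparisons. The summed fit was not run for IFNγ in Rosa26 or between guides.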
